A study of Mus musculus with 18 samples.

Results

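Peripheral naive CD4 T cells that carried both the W131A substitution in ZAP-70 and a loss of Cbl-b were compared with OTII cells that carried neither change. The members are all libraries labelled with these 2 genotypes among the peripheral samples: 3 Cbl-b-/-W131AOTII libraries and 3 OTII libraries, which makes 6 of the 18 libraries in the series. W131AOTII is presented by the study as a model of anergy, and the comparison addresses what is left of its transcriptional state when Cbl-b is lost as well.

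Every group came from C57BL/6 mice that carry the OT-II transgenes, which encode an ovalbumin-specific, class II-restricted T cell receptor. The peripheral groups used are Cbl-b-/-W131AOTII (both changes), W131AOTII (the substitution with Cbl-b present), Cbl-b-/- OTII (Cbl-b lost, ZAP-70 unchanged) and OTII. Each has 3 libraries. CD4 T cells were taken from spleen and lymph nodes and sorted as naive cells with low CD44 and the Va2 chain of OT-II, without CD25. Per the labels, 6 Cbl-b-/-W131AOTII, 12 W131AOTII, 3 Cbl-b-/- OTII and 3 OTII mice were used, so W131AOTII and Cbl-b-/-W131AOTII libraries stand for pooled mice. The sources used here give neither ages nor which mouse entered which library, and the tests therefore measure the spread among libraries, which may be technical. A colony or handling difference shared by the libraries of a genotype cannot be told apart from that genotype.

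ZAP-70 is the kinase that docks on the phosphorylated chains of the T cell receptor and passes the signal on to LAT and SLP-76. W131 takes part in holding the kinase in its autoinhibited form. Cbl-b is a ubiquitin ligase that restrains T cell activation, and mice that lack it have T cells that respond with less need of CD28 costimulation. Anergy is an unresponsive state of T cells that met antigen without full costimulation. In CD4 T cells it is marked at the surface by CD73 (encoded by Nt5e) and folate receptor 4 (Izumo1r), which regulatory T cells carry too.

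The 3 Cbl-b-/-W131AOTII libraries held 31666268, 25634489 and 27156087 counts assigned to genes, and the 3 OTII libraries 29851179, 30543980 and 28766735. None of these 6 libraries stood apart from its group, and the lowest Spearman correlation within a group was 0.988. Mitochondrially encoded genes took 0.613% to 0.814% of counts in Cbl-b-/-W131AOTII libraries, against 0.456% to 0.610% in OTII libraries. Levels are given as CPM, the counts scaled to a common library total after edgeR's TMM normalization, which allow a gene to be compared between libraries but not with another gene. Changes are given on the log2 scale, Cbl-b-/-W131AOTII over OTII unless another pair is named.

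The genotype itself can be read only in part from gene-level counts. Cblb (chr16:52031225-52208048, GRCm38) had 111, 87.2 and 82.8 CPM in Cbl-b-/-W131AOTII libraries, against 124, 122 and 142 CPM in OTII libraries. All 3 Cbl-b-/-W131AOTII libraries lay below all 3 OTII libraries, but the difference did not pass the test (log2 fold change -0.47, SE 0.17, edgeR adjusted p = 0.1). Cblb did pass as lower in Cbl-b-/- OTII over OTII cells (-0.89, edgeR adjusted p = 0.006). It also passed in Cbl-b-/-W131AOTII over W131AOTII cells (-0.76, edgeR adjusted p = 0.014), a call lost without Cbl-b-/-W131AOTII replicate 2 or 3. The sources used here do not name the part of Cblb that the null allele removes, and the gene-level count of Cblb neither checks nor goes against the label. Zap70 (chr1:36761798-36782818) had 183, 223 and 216 CPM in Cbl-b-/-W131AOTII libraries, against 272, 350.2 and 321 CPM in OTII libraries, again with no overlap and past no threshold (-0.60, SE 0.21, edgeR adjusted p = 0.079).

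The naive CD4 sort was checked on its markers. Cd44 had 28.4, 31.5 and 25.3 CPM in Cbl-b-/-W131AOTII libraries, against 46.4, 53.2 and 50.2 CPM in OTII libraries (-0.81, SE 0.20, edgeR adjusted p = 0.018). It was lower, without overlap, and the call was lost on leaving out Cbl-b-/-W131AOTII replicate 1 or 3 or OTII replicate 2 or 3, with adjusted p up to 0.0873. Of 12 tested CD4 T cell identity genes, 2 fell and none rose, against 3.52% and 3.87% of all genes. Those that fell were the coreceptor gene Cd4 (-0.56, edgeR adjusted p = 0.0071) and Tcf7, which encodes the naive T cell factor TCF-1 (-0.50, edgeR adjusted p = 0.013). Both calls were lost without Cbl-b-/-W131AOTII replicate 1, OTII replicate 2 or OTII replicate 3, that of Tcf7 also without Cbl-b-/-W131AOTII replicate 3 (adjusted p up to 0.0546 for Cd4 and 0.0989 for Tcf7). Ccr7, Klf2, S1pr1, Il7r, Foxo1 and Lef1 did not pass the test.

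Across the table, 1123 of 15204 genes tested changed at an adjusted p under 0.05 (7.39%), 588 higher (3.87%) and 535 lower (3.52%) in Cbl-b-/-W131AOTII cells. A fold of 2 or more was reached by 458 of them, 362 higher and 96 lower. The median log2 fold change over all genes tested was 0.04. Libraries of the 2 groups did not overlap for 6037 genes (39.7%). Scaling by library size alone, with no TMM, moved that median to 0.16 and gave 833 higher and 339 lower genes, a share of 71.1% higher against 52.4% with TMM. The count depended on single libraries: it was 341 when OTII replicate 3 was left out, 366 when OTII replicate 2 or Cbl-b-/-W131AOTII replicate 1 was, 536 for Cbl-b-/-W131AOTII replicate 2 and 694 for Cbl-b-/-W131AOTII replicate 3. The genes that fell had a median GC content of 53.6%, those that rose 46.0% and all genes tested 49.0%.

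Gene lists differed widely in how many members changed. Markers of regulatory T cells had the highest share of higher members, 18 of 20 tested, against 3.87% of all genes. Type I interferon response genes had 15 of 39 tested members lower and none higher, against 3.52% of all genes. No member of the unfolded protein response list passed the test among 20.

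**Figure D1:**
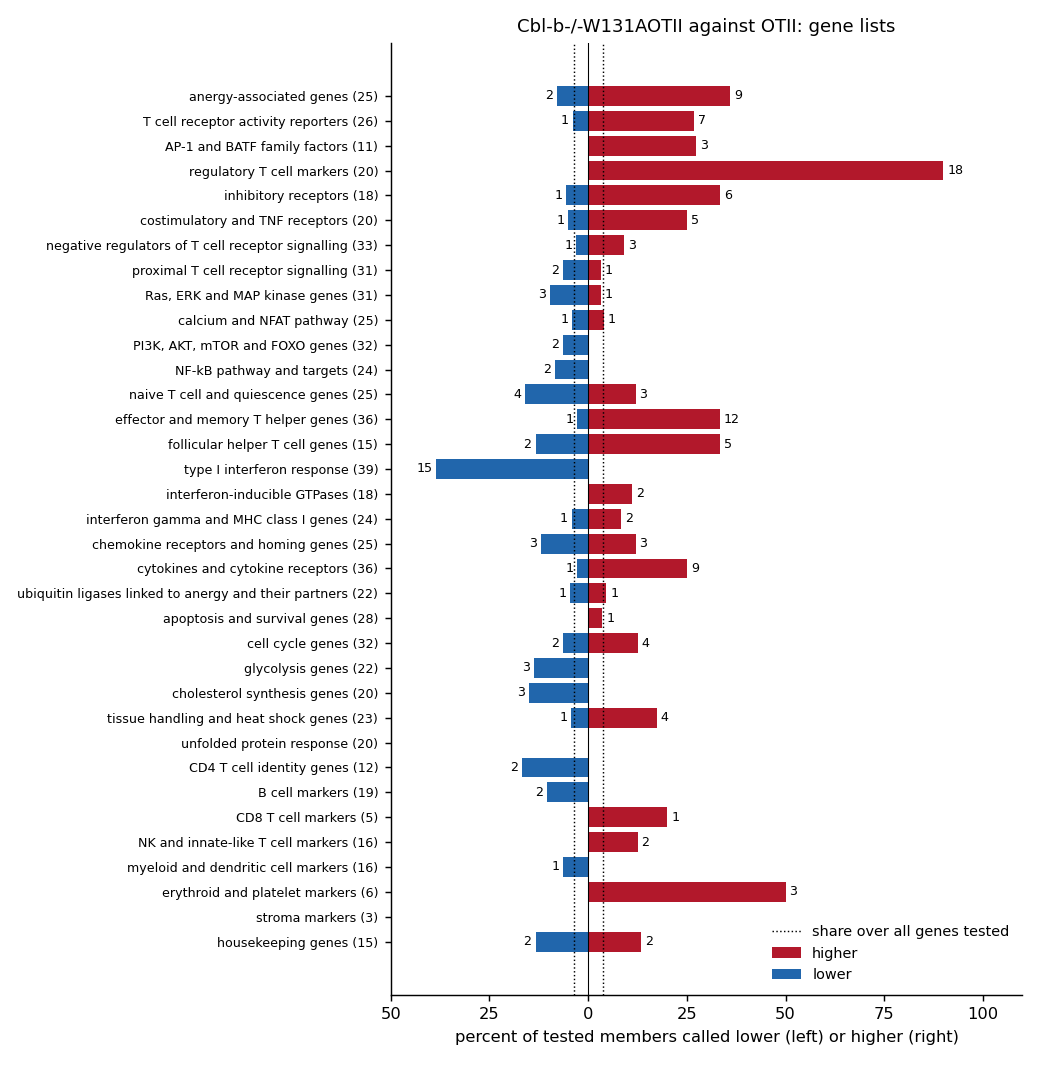
Bars give, for each gene list, the percent of tested members that were lower (left) or higher (right) in Cbl-b-/-W131AOTII than in OTII cells, with the number of members tested in brackets and the number changed at the bar's end. Dotted lines mark the share over all genes tested, 3.52% lower and 3.87% higher. Regulatory T cell markers reach furthest to the right, with 18 of 20.

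Regulatory T cell genes were higher in Cbl-b-/-W131AOTII cells, 18 of 20. Their median log2 fold change over OTII was 2.15, against 0.04 for all genes, and their summed level was 1249 to 1438 CPM in Cbl-b-/-W131AOTII libraries, against 425 to 445 CPM in OTII libraries. Foxp3, the transcription factor that defines regulatory T cells, had 125, 125 and 114 CPM in Cbl-b-/-W131AOTII libraries, against 28.5, 31.1 and 34.3 CPM in OTII libraries (1.96, SE 0.20, edgeR adjusted p = 5.8e-06). Its levels in the other 2 genotypes were 138, 161 and 148 CPM in W131AOTII and 31.7, 51.2 and 51.8 CPM in Cbl-b-/- OTII libraries. All libraries with the W131A substitution lay above all libraries without it, whether Cbl-b was present or not. In bulk RNA, more cells with a transcript and more transcript per cell cannot be told apart.

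Genes for surface proteins of regulatory T cells were among those that rose. Lrrc32, which encodes GARP, the protein that presents latent TGF-beta, had 67.7, 77.6 and 75.8 CPM in Cbl-b-/-W131AOTII libraries, against 11.7, 10.2 and 13.5 CPM in OTII libraries (2.64, SE 0.21, edgeR adjusted p = 5e-07). Il2ra, which encodes CD25, the interleukin-2 receptor chain that the sort selected against at the surface, had 87.1, 80.6 and 77.2 CPM in Cbl-b-/-W131AOTII libraries, against 23.8, 24.3 and 23.7 CPM in OTII libraries (1.77, SE 0.16, edgeR adjusted p = 1.6e-06). Neither gene's groups overlapped. Il2rb, the receptor's beta chain, rose by 2.01. Nrp1, which encodes the semaphorin receptor neuropilin-1, rose by 1.56, and Gpr83, a G protein-coupled receptor, by 1.49. Tnfrsf4, which encodes the costimulatory receptor OX40, rose by 2.55, and Tnfrsf9, which encodes 4-1BB, by 2.19. All 5 kept their call under every alternative tried. The largest log2 fold change in the list was 3.27, of Socs2, a suppressor of cytokine signalling, and Entpd1, which encodes the ectonucleotidase CD39, rose by 2.34.

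Ikzf2, which encodes the transcription factor Helios, differed from the other markers in its level relative to W131AOTII. It had 68.1, 45.8 and 34.3 CPM in Cbl-b-/-W131AOTII, 23.9, 12.5 and 11.4 CPM in W131AOTII, 13.5, 8.46 and 21.4 CPM in Cbl-b-/- OTII and 5.21, 4.17 and 6.49 CPM in OTII libraries. Every Cbl-b-/-W131AOTII library lay above every library of the other 3 groups. The log2 fold change was 3.22 over OTII (SE 0.38, edgeR adjusted p = 3.5e-05) and 1.63 over W131AOTII (SE 0.35, edgeR adjusted p = 0.012). The call over W131AOTII was lost without Cbl-b-/-W131AOTII replicate 1, W131AOTII replicate 2 or W131AOTII replicate 3, with adjusted p up to 0.0957. No other marker of the list differed from W131AOTII past the threshold, so 1 of 20 was higher, against 3.18% of all genes. Compared with Cbl-b-/- OTII cells, 10 of 20 were higher, against 0.802% of all genes. Each single change also came with higher markers over the same OTII libraries. In W131AOTII cells 17 of 20 were higher (median log2 fold change 1.73), against 1.68% of all genes. In Cbl-b-/- OTII cells 11 of 20 were (median 0.95), against 5.22%, and 0 were lower in either.

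Not every marker passed. Izumo1r, which encodes folate receptor 4, had a log2 fold change of 0.71 over OTII (edgeR adjusted p = 0.079) and Tnfrsf18, which encodes GITR, one of 0.54 (edgeR adjusted p = 0.084). Itgae, the integrin chain CD103, rose by 2.21, and its call was lost without OTII replicate 2 or 3 (adjusted p 0.0685 and 0.0711). Capg, an actin-capping protein gene, rose by 1.06, and its call was lost without OTII replicate 3 (adjusted p 0.0551). The count of higher markers ranged from 16 to 18 over the libraries left out.

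Anergy-associated genes were called in both directions, 9 higher and 2 lower of 25 tested, against 3.87% and 3.52% of all genes, with a median log2 fold change of 0.63. Of the higher members, Nt5e, Ctla4, Nrp1 and Tigit are in the regulatory list too. Over the same OTII libraries, W131AOTII cells had 6 higher and 1 lower members, against 1.68% and 0.25% of all genes. Cbl-b-/- OTII cells had 7 higher and 2 lower, against 5.22% and 2.99%. Nt5e, which encodes the ectonucleotidase CD73, had 66.6, 77.7 and 63.0 CPM in Cbl-b-/-W131AOTII libraries, against 13.5, 9.27 and 6.99 CPM in OTII libraries (2.80, SE 0.30, edgeR adjusted p = 1.1e-05). Ctla4, which encodes the inhibitory receptor that competes with CD28, had 29.6, 26.3 and 24.0 CPM in Cbl-b-/-W131AOTII libraries, against 6.47, 4.31 and 3.41 CPM in OTII libraries (2.49, SE 0.25, edgeR adjusted p = 4.2e-06). Both were higher in every Cbl-b-/-W131AOTII library than in any OTII library. Tigit, an inhibitory receptor gene, rose by 2.11. Bhlhe40, a stress-responsive transcriptional repressor, rose by 1.79. Pdcd1, which encodes PD-1, rose by 1.48 (SE 0.32, edgeR adjusted p = 0.0085), a call lost without OTII replicate 3 (adjusted p 0.056).

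Dtx1 moved the other way. The gene encodes Deltex1, a ubiquitin ligase that is an NFAT target in anergic T cells, and it had 192, 279 and 248 CPM in Cbl-b-/-W131AOTII libraries, against 421, 579 and 614 CPM in OTII libraries (-1.17, SE 0.22, edgeR adjusted p = 0.0026). The groups did not overlap. Its log2 fold change over OTII was 0.22 in W131AOTII cells and -1.76 in Cbl-b-/- OTII cells, groups set against the same OTII libraries, where 8.21% of all genes changed in Cbl-b-/- OTII cells. Ndrg1, another gene linked to anergy, fell by 0.80 (edgeR adjusted p = 0.0017). Unlike Dtx1, it was also lower in W131AOTII cells over the same OTII libraries (-0.94, edgeR adjusted p = 0.00059). In Cbl-b-/-W131AOTII over Cbl-b-/- OTII cells its log2 fold change was -0.89 (edgeR adjusted p = 0.0014). Smaller rises of Cd200 (0.66), of Ndfip1, an adaptor of the ligase Itch (0.75), and of the antiproliferative gene Tob1 (0.63) were lost without any one of Cbl-b-/-W131AOTII replicates 1 and 2 and OTII replicates 2 and 3, with adjusted p up to 0.127, 0.18 and 0.118. The number of higher members was 5 without OTII replicate 3 and 6 without OTII replicate 2, Cbl-b-/-W131AOTII replicate 1 or Cbl-b-/-W131AOTII replicate 2. Itch (-0.06) and Rnf128, which encodes the anergy ligase GRAIL (1.14, edgeR adjusted p = 0.48), did not pass.

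**Figure D2:**
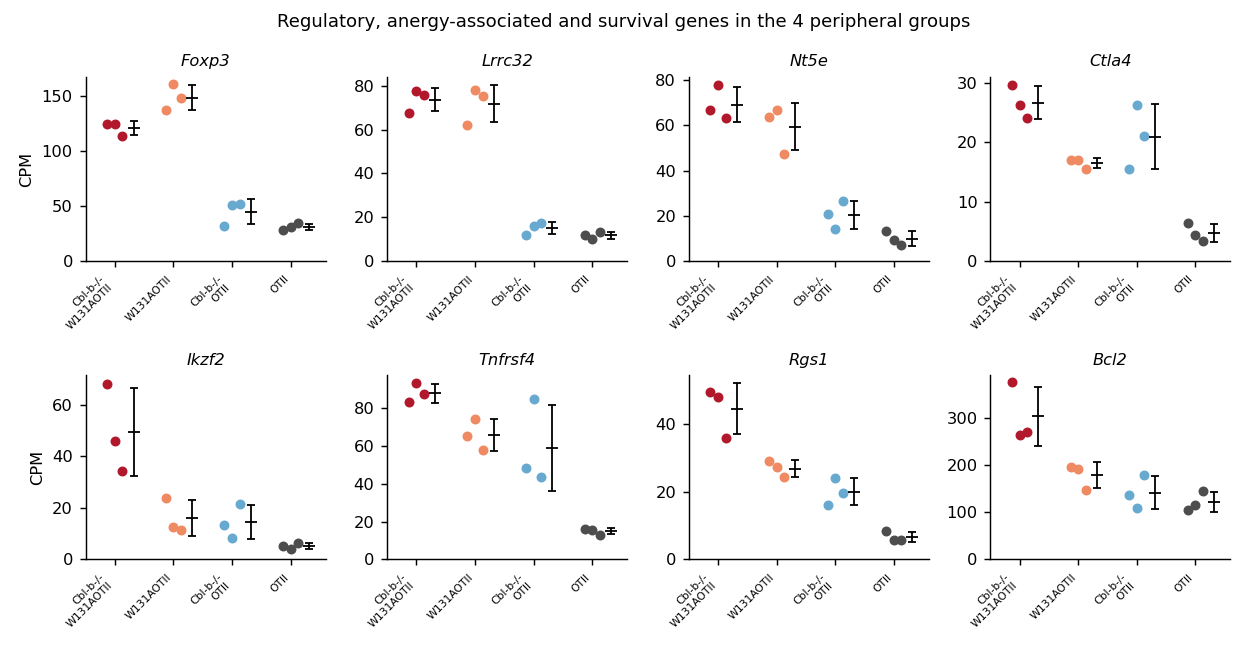
Points are the CPM of single libraries and bars the mean ± SD of 3, for Cbl-b-/-W131AOTII, W131AOTII, Cbl-b-/- OTII and OTII, each panel with its own axis from 0. For Foxp3, Lrrc32 and Nt5e both groups with the W131A substitution lie together above OTII, while Ikzf2 and Bcl2 are higher in every Cbl-b-/-W131AOTII library than in any other library.

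How far the W131A state held was read in the genes that answered most clearly to the substitution alone. These were the 20 with the smallest p-value in W131AOTII against OTII among genes changed at least 2-fold whose libraries did not overlap. Predicted genes, pseudogenes and antigen receptor segments were left out. The 20 included Foxp3, Lrrc32, Il2ra, Il2rb, Nt5e, Nrp1, Gpr83, Tnfrsf4, Rgs1, Cish, Cxcr3, Wdfy1, Car2 and Rell1. They were chosen on W131AOTII and OTII libraries, so their values against either group are a description that supports nothing further. Between Cbl-b-/-W131AOTII and W131AOTII, 4 of the 20 differed, where 9.25% of all genes did. That share is 1407 genes and depended on single libraries. It was 124 genes without Cbl-b-/-W131AOTII replicate 1, 262 without W131AOTII replicate 2 and 413 without W131AOTII replicate 3. Tspan9, a tetraspanin gene, had 18.5, 32.1 and 26.4 CPM in Cbl-b-/-W131AOTII libraries, against 64.5, 81.2 and 81.6 CPM in W131AOTII libraries (-1.56, SE 0.29, edgeR adjusted p = 0.0057), without overlap, and the call was kept with any peripheral library left out. Rgs1, a regulator of G protein signalling, was higher by 0.73 (edgeR adjusted p = 0.024) and Car2, carbonic anhydrase 2, by 0.61 (edgeR adjusted p = 0.034), while Syt11, a synaptotagmin gene, was lower by 0.60 (edgeR adjusted p = 0.021). Those 3 calls were each lost without Cbl-b-/-W131AOTII replicate 1, W131AOTII replicate 2 or W131AOTII replicate 3, that of Rgs1 also without Cbl-b-/-W131AOTII replicate 2 and that of Car2 without most libraries, with adjusted p up to 0.131, 0.134 and 0.134. The other 16 had log2 differences from W131AOTII that did not pass the test, which does not show that they were equal.

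The substitution's effect can also be read in 2 contrasts that share no library: W131AOTII against OTII, and Cbl-b-/-W131AOTII against Cbl-b-/- OTII. The first had 293 changed genes (1.93%), 255 higher and 38 lower, and the second 287 (1.89%), 122 higher and 165 lower. Of the 255 genes higher with Cbl-b present, 65 were also higher with Cbl-b lost, which is 25.5% of the first list, against 0.802% of all genes, and 53.3% of the second, against 1.68%. Of the 38 lower genes, 17 were also lower, which is 44.7% of the first list, against 1.09% of all genes, and 10.3% of the second, against 0.25%. In the opposite direction were 6 of the 255 and none of the 38. The contrast with Cbl-b lost depended on single libraries: it had 946 changed genes without Cbl-b-/- OTII replicate 3, 186 without Cbl-b-/- OTII replicate 1, 168 when Cbl-b-/-W131AOTII replicate 1 was left out, and 144 for Cbl-b-/-W131AOTII replicate 2 or 3. The contrast with Cbl-b present had 147 to 154 changed genes without any one OTII library and 190 without W131AOTII replicate 2.

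Reporters of receptor activity were mixed: of 26 tested, 7 rose and 1 fell, against 3.87% and 3.52% of all genes (median log2 fold change 0.38), and 3 of those that rose, Il2ra, Tnfrsf4 and Tnfrsf9, are also in the regulatory list. Nr4a1, which encodes Nur77, a reporter of recent receptor signalling, had 47.0, 51.7 and 51.4 CPM in Cbl-b-/-W131AOTII libraries, against 40.5, 38.9 and 40.2 CPM in OTII libraries (0.33, SE 0.15, edgeR adjusted p = 0.2). The groups did not overlap, but the difference did not pass. In W131AOTII cells its log2 fold change over the same OTII libraries was 0.65 (edgeR adjusted p = 0.029), a call lost on leaving out any of W131AOTII replicates 1 and 2 and OTII replicates 1, 2 and 3 (adjusted p up to 0.132). In Cbl-b-/-W131AOTII over Cbl-b-/- OTII cells Nr4a1 had a log2 fold change of 0.72 (edgeR adjusted p = 0.018). That call was lost without Cbl-b-/-W131AOTII replicate 2 or 3 or Cbl-b-/- OTII replicate 1 (adjusted p up to 0.0741). Egr2 (-0.16), Egr3 (0.13), Cd5 (0.09) and Cd69 (0.25) did not pass.

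Egr1, an immediate early transcription factor gene, was the member that fell. It had 65.5, 78.6 and 66.6 CPM in Cbl-b-/-W131AOTII libraries, against 130.3, 125 and 124 CPM in OTII libraries (-0.85, SE 0.16, edgeR adjusted p = 0.0037). The groups did not overlap, and the call was lost when GC content and gene length were corrected for. Its log2 fold change over OTII was -0.09 in W131AOTII cells and -1.29 in Cbl-b-/- OTII cells. Fosb, an AP-1 subunit gene, had 1.35, 0.747 and 0.799 CPM in Cbl-b-/-W131AOTII libraries, against 0.0668, 0.103 and 0.0717 CPM in OTII libraries (3.52, SE 0.61, edgeR adjusted p = 0.0013). It also exceeded W131AOTII by 3.35 (edgeR adjusted p = 0.0039). Its relative Fos rose by 2.06, a call lost without Cbl-b-/-W131AOTII replicate 1, OTII replicate 2 or OTII replicate 3 (adjusted p up to 0.136). Spry1, which encodes the Ras pathway inhibitor Sprouty1, rose by 2.17.

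Counts in the signalling lists are to be read beside the 7.39% of all genes that changed in either direction. Among proximal receptor components, 1 rose and 2 fell of 31 tested. In the Ras and ERK list 1 rose and 3 fell of 31, in the calcium and NFAT list 1 rose and 1 fell of 25, in the PI3K list 2 fell of 32, and in the NF-kB list 2 fell of 24. Of 33 negative regulators, Rgs1, Cish and Socs1 rose and Csk, the kinase that keeps Lck inactive, fell. The calls of Socs1 and Csk were lost with any library left out (adjusted p up to 0.113 and 0.196). Dgka and Dgkz, diacylglycerol kinases that limit Ras signalling in anergic cells, did not pass. Cish, a target of STAT5, had 43.1, 40.2 and 42.0 CPM in Cbl-b-/-W131AOTII libraries, against 14.5, 14.4 and 14.8 CPM in OTII libraries (1.52, SE 0.14, edgeR adjusted p = 1.6e-06). Of 18 inhibitory receptors 6 rose and 1 fell (3 rose without OTII replicate 3, and 0 fell without any one library but OTII replicate 1), and of 20 costimulatory and TNF family receptors 5 rose and 1 fell, Tnfrsf1a (-0.86, edgeR adjusted p = 0.00062), with 3 higher without OTII replicate 2 or 3. Ubiquitin ligases had 1 higher and 1 lower member of 22.

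Rgs1 had the smallest p-value of the genes that rose: 49.6, 48.2 and 35.9 CPM in Cbl-b-/-W131AOTII libraries, against 8.34, 5.81 and 5.77 CPM in OTII libraries (2.74, SE 0.20, edgeR adjusted p = 3.8e-07). Bcl2, the antiapoptotic gene, had 376, 263 and 269.6 CPM in Cbl-b-/-W131AOTII libraries, 197, 192 and 147 CPM in W131AOTII libraries, 137, 109 and 178 CPM in Cbl-b-/- OTII libraries and 105.1, 116 and 146 CPM in OTII libraries. All 3 Cbl-b-/-W131AOTII libraries lay above all others. The log2 fold change was 1.31 over OTII (SE 0.19, edgeR adjusted p = 0.0003) and 0.76 over W131AOTII (edgeR adjusted p = 0.022), the second lost without Cbl-b-/-W131AOTII replicate 1, W131AOTII replicate 2 or W131AOTII replicate 3 (adjusted p up to 0.147). Bcl2 was the only one of 28 tested apoptosis genes that passed, where 7.39% of all genes did in either direction. Hopx, a homeodomain-only cofactor gene expressed in effector and regulatory T cells, rose by 2.57, and Wdfy1, an endosomal adaptor gene, by 2.14.

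Synj2, which encodes the inositol phosphatase synaptojanin 2, had the smallest p-value of the genes that fell. It had 11.2, 8.25 and 9.97 CPM in Cbl-b-/-W131AOTII, 45.9, 50.6 and 50.9 CPM in W131AOTII, 26.7, 23.0035 and 26.5 CPM in Cbl-b-/- OTII and 44.8, 48.7 and 54.0 CPM in OTII libraries. The Cbl-b-/-W131AOTII libraries were below every other library, and both Cbl-b-/- groups were below both groups that keep Cbl-b. The log2 fold change was -2.32 over OTII (SE 0.20, edgeR adjusted p = 1.2e-06) and -2.32 over W131AOTII. Rell1, a RELT-like gene, fell by 1.80. Car2 fell by 1.40 over OTII (SE 0.17, edgeR adjusted p = 4.6e-05), and its log2 fold change in W131AOTII over OTII was -2.02. Bcl6, the transcription factor of follicular helper T cells, had 16.4, 21.3 and 20.5 CPM in Cbl-b-/-W131AOTII libraries, against 32.9, 38.3 and 32.9 CPM in OTII libraries (-0.84, SE 0.17, edgeR adjusted p = 0.0051). Jup, which encodes plakoglobin, fell by 2.28 and Il17rb, a receptor chain for interleukin-25, by 2.14.

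Type I interferon response genes were the list with the highest share of lower members. Interferon alpha and beta act through a transcription factor complex that holds IRF9, binds the interferon-stimulated response element and switches on antiviral genes. Of 39 tested members of the list of 41, 15 fell and none rose, with a median log2 fold change of -0.50. Their summed level was 4190.4 to 4797 CPM in Cbl-b-/-W131AOTII libraries, against 5406 to 6596 CPM in OTII libraries. The count of lower members was 12 or 13 with any of the 6 libraries left out.

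The promoters of 4 of these genes are shown because these genes fell and their promoters carry the core of the response element. Each is the 250 bases before the annotated start, 5′ to 3′ on the gene's strand, from RefSeq (GRCm38.p6), with capitals marking the searched core, TTTC, then NN for any 2 bases, then TTTC, or its reverse complement with GAAA on both sides of NN, overlapping matches included.
Ifit1: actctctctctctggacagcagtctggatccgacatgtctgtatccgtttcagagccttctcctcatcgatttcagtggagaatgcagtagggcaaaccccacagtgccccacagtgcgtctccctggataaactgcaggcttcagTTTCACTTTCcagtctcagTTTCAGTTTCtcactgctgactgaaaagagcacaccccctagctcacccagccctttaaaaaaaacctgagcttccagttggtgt
Ifit3: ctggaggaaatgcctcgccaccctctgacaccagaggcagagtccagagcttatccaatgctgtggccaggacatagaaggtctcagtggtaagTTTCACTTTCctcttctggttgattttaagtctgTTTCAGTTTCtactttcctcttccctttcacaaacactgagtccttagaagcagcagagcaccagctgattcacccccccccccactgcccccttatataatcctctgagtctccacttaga
Rsad2: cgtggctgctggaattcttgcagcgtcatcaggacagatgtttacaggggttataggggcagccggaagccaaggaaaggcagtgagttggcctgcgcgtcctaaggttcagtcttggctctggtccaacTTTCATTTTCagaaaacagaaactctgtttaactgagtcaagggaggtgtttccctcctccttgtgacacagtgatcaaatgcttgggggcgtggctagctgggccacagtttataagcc
Isg15: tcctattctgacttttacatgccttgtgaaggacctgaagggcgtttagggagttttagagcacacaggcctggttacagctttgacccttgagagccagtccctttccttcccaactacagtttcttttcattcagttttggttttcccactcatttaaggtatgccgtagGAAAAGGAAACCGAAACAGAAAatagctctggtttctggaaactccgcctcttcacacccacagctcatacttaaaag
The stretches lie at chr19:34640639-34640888 on the plus strand for Ifit1, chr19:34583279-34583528 on the plus strand for Ifit3, chr12:26456453-26456702 on the minus strand for Rsad2 and chr4:156200819-156201068 on the minus strand for Isg15. Searched on both strands of 300-base promoters, the core was present in 6 of the 12 lower interferon genes with a promoter entry, in 10 of the 15 that did not pass, and in 394 of 10263 tested genes (3.84%). The core was thus present in members that fell and in members that did not pass, which describes these windows and no factor's binding.

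The genes that fell included antiviral effectors. Rsad2, which encodes viperin, had 11.5, 11.7 and 10.4 CPM in Cbl-b-/-W131AOTII, 80.4, 43.2 and 69.9 CPM in W131AOTII, 40.3, 32.2 and 35.0 CPM in Cbl-b-/- OTII and 55.8, 49.4 and 42.1 CPM in OTII libraries. The Cbl-b-/-W131AOTII libraries lay below all 9 others. The log2 fold change over OTII was -2.13 (SE 0.21, edgeR adjusted p = 3.5e-06). Ifit1, a sensor of viral RNA, had 130.6, 121.6 and 153.0 CPM in Cbl-b-/-W131AOTII libraries, against 429.7, 353 and 319 CPM in OTII libraries (-1.44, SE 0.18, edgeR adjusted p = 6e-05). Ifit3, its partner, had 45.8, 32.5 and 47.6 CPM in Cbl-b-/-W131AOTII libraries, against 150.1, 104 and 104.7 CPM in OTII libraries (-1.51, SE 0.20, edgeR adjusted p = 0.00011). For both genes the groups were apart. Ifit3b, outside the list, is a near copy of Ifit3 and could share reads with it. It fell by 1.99, a value that is uncertain for that reason.

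Genes that modify or amplify the response were also lower. Ifitm3, which blocks viral entry, fell by 2.10, and Oasl1, a 2′-5′-oligoadenylate synthetase-like gene, by 1.45. Isg15, a ubiquitin-like modifier, had 23.4, 23.5 and 25.5 CPM in Cbl-b-/-W131AOTII libraries, against 65.2, 57.1 and 50.7 CPM in OTII libraries (-1.26, SE 0.28, edgeR adjusted p = 0.011), a call lost without Cbl-b-/-W131AOTII replicate 1 (adjusted p 0.0503). Irf7, which amplifies the response, fell by 0.90. Ifi44 (-1.24) lost its call without Cbl-b-/-W131AOTII replicate 2 or 3 or OTII replicate 1 or 3 (adjusted p up to 0.0869), and Isg20 (-0.72) and Usp18 (-0.48), whose product is a brake on the interferon receptor, lost theirs with any library left out (adjusted p up to 0.144 and 0.153). Irf9 (-0.29, edgeR adjusted p = 0.11) did not pass.

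Neither change alone gave lower members past the threshold. Against the same OTII libraries, W131AOTII cells had 3 higher members of the list (against 1.68% of all genes) and Cbl-b-/- OTII cells 10 (against 5.22%), with 0 lower in either (against 0.25% and 2.99%). Cbl-b-/-W131AOTII cells had 26 lower members against W131AOTII cells (against 6.08% of all genes) and 24 against Cbl-b-/- OTII cells (against 1.09%), with none higher in either. The 26 became 17 without Cbl-b-/-W131AOTII replicate 1, and the 24 became 18 without Cbl-b-/-W131AOTII replicate 2 or 3. Markers of other cells moved with these contrasts: against W131AOTII cells 16 of 19 B cell markers, 45 of 61 immunoglobulin segments and 5 of 16 myeloid markers were lower, and against Cbl-b-/- OTII cells 4 of 16 myeloid markers and none of the B cell markers were. Summed B cell markers had 1737 to 1911 CPM in Cbl-b-/-W131AOTII libraries, 2585 to 6591 CPM in W131AOTII libraries and 2079.9 to 2728 CPM in Cbl-b-/- OTII libraries, and their part in the interferon counts was not tested. The difference itself was tested as an interaction, the W131A effect with Cbl-b lost minus the W131A effect with Cbl-b present: it was below 0 past the threshold for 20 of 39 members and above 0 for none, against 0.592% of all genes below 0 and 0.0395% above it. Over the libraries left out, a setting chosen after seeing the data, 16 to 23 members passed. For Ifit1 the interaction was -1.71, for Ifit3 -2.24 and for Rsad2 -2.07 on the log2 scale.

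Interferon-inducible GTPases, the guanylate-binding and immunity-related proteins that answer mainly to interferon gamma, had no lower member. Of 18 tested, 2 rose over OTII, Gbp3 (0.76, edgeR adjusted p = 0.0015) and Gbp4 (0.66), whose call was lost with any library left out but OTII replicate 1 (adjusted p up to 0.2). In Cbl-b-/- OTII cells, 16 of the 18 were higher than in the same OTII libraries, against 5.22% of all genes. Igtp, a member of the immunity-related family, had 758, 628 and 699.5 CPM in Cbl-b-/-W131AOTII libraries, 1575, 1497 and 1457 CPM in Cbl-b-/- OTII libraries and 694, 665 and 630.5 CPM in OTII libraries. The Cbl-b-/-W131AOTII and OTII libraries overlapped, and Cbl-b-/- OTII lay above both. Of 24 tested interferon gamma and MHC class I genes, 2 rose and 1 fell. For both lists the shares over all genes are 3.87% higher and 3.52% lower.

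**Figure D3:**
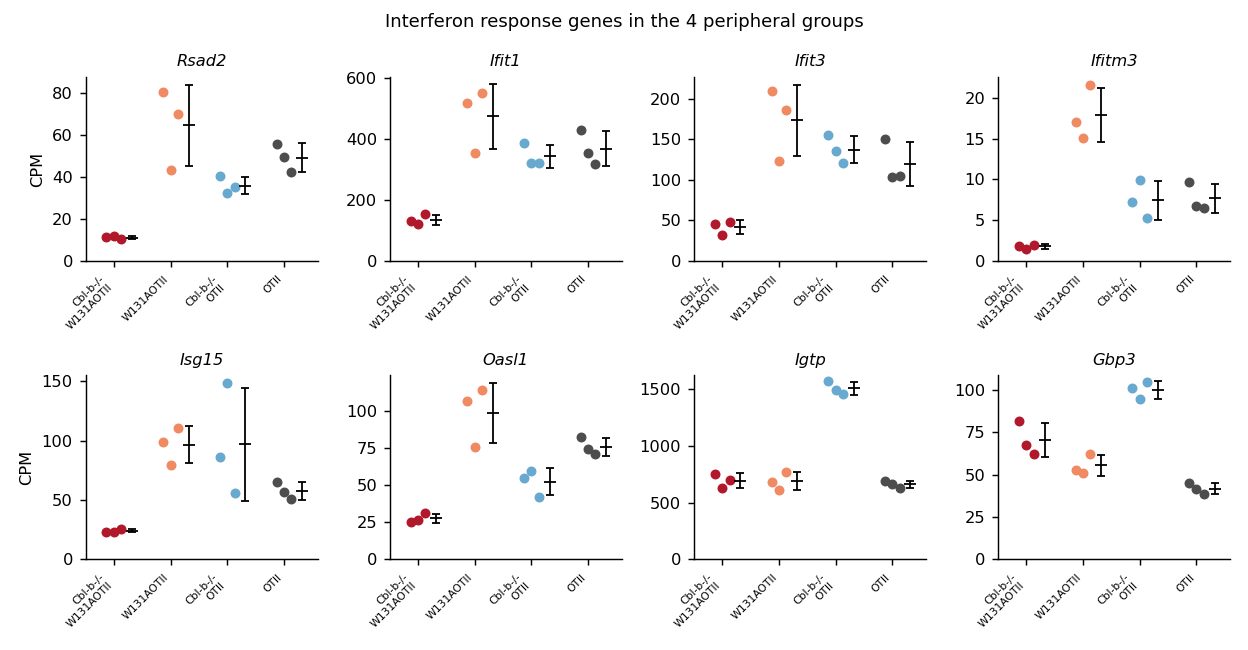
Points are the CPM of single libraries and bars the mean ± SD of 3, for Cbl-b-/-W131AOTII, W131AOTII, Cbl-b-/- OTII and OTII, each panel with its own axis from 0. For Rsad2, Ifit1, Ifit3, Ifitm3, Isg15 and Oasl1 the Cbl-b-/-W131AOTII libraries are below the OTII libraries, whereas Igtp overlaps with OTII and is highest in Cbl-b-/- OTII.

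Effector and memory T helper genes included 12 higher members of 36 tested and 1 lower, against 3.87% and 3.52% of all genes, with a median log2 fold change of 1.23. Over the same OTII libraries, 8 were higher in W131AOTII cells (against 1.68% of all genes) and 17 in Cbl-b-/- OTII cells (against 5.22%). None was lower in either. The interaction was below 0 past the threshold for 8 members (against 0.592% of all genes) and above 0 for none. Cxcr3, the chemokine receptor of T helper 1 cells, had 6.68, 11.5 and 12.2 CPM in Cbl-b-/-W131AOTII libraries, against 2.77, 2.80 and 2.01 CPM in OTII libraries (1.99, SE 0.29, edgeR adjusted p = 0.00024). Its log2 fold change in Cbl-b-/- OTII over OTII was 3.03. Id2, an inhibitor of E proteins, had 51.7, 57.5 and 49.5 CPM in Cbl-b-/-W131AOTII libraries, against 17.1, 22.9 and 19.1 CPM in OTII libraries (1.42, SE 0.22, edgeR adjusted p = 0.00054). Neither pair of groups overlapped. Klrg1, a marker of late effector cells, had 1.06, 0.859 and 2.502 CPM in Cbl-b-/-W131AOTII libraries, against 0.0334, 0 and 0 CPM in OTII libraries, where a single read was counted, and the ratio of pooled counts over pooled library sizes was 127 (95% counting interval 22.4 to 5062). Its log2 fold change in Cbl-b-/-W131AOTII was -2.49 over Cbl-b-/- OTII (edgeR adjusted p = 0.021) and 2.42 over W131AOTII cells (edgeR adjusted p = 0.024). Both calls depended on single libraries (adjusted p up to 0.114 and 0.109). Gzmb, the cytotoxic protease gene, rose by 2.55, a call lost without Cbl-b-/-W131AOTII replicate 1, OTII replicate 1 or OTII replicate 3 (adjusted p up to 0.0624). The count of 12 higher members became 6 without OTII replicate 3.

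Cytokine, homing and helper subset genes were mixed. The shares to set beside these counts are 3.87% of all genes higher and 3.52% lower. Of 36 cytokine and cytokine receptor genes 9 rose and 1 fell, and the number that rose was 4 without Cbl-b-/-W131AOTII replicate 1, OTII replicate 2 or OTII replicate 3, and 5 without Cbl-b-/-W131AOTII replicate 2 or 3. In the chemokine and homing list 3 of 25 rose, among them Ccr8 (1.88), a chemokine receptor of regulatory T cells, and 3 fell, the integrin chains Itgal and Itgb2 and the oxysterol receptor Gpr183. The calls of Itgal and Itgb2 were lost without Cbl-b-/-W131AOTII replicate 1 or 3 or OTII replicate 2 or 3 (adjusted p up to 0.113 and 0.0915). Of 15 follicular helper genes 5 rose, led by the transcription factor gene Maf (3.15), and 2 fell, Bcl6 and Tox, the second a call lost with any library left out but OTII replicate 1 (adjusted p up to 0.147). The number of higher members was 2 without OTII replicate 2 or 3, and 3 without Cbl-b-/-W131AOTII replicate 1, Cbl-b-/-W131AOTII replicate 2 or OTII replicate 1. In the naive T cell list 3 of 25 rose and 4 fell, but none fell without Cbl-b-/-W131AOTII replicate 1 or 3 or OTII replicate 2 or 3, 1 fell without Cbl-b-/-W131AOTII replicate 2, and 1 rose without any one library but OTII replicate 1, where 2 did.

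The metabolic genes that changed were lower. Glycolysis had 3 lower members of 22, Hk1, Aldoa and Eno1, against 3.52% of all genes, and cholesterol synthesis 3 of 20, among them Srebf2, its master regulator (-0.71). The calls of Hk1, Aldoa, Eno1, Srebf2 and the cholesterol gene Dhcr7 were each lost without Cbl-b-/-W131AOTII replicate 1 and also without OTII replicate 2, with adjusted p up to 0.0767, 0.144, 0.238, 0.0622 and 0.167 in that order. Of 32 cell cycle genes 4 rose and 2 fell, beside 3.87% and 3.52% of all genes. None rose with any library left out but Cbl-b-/-W131AOTII replicate 3, where 2 did, and 0 or 1 fell in every case.

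Tissue handling and heat shock genes, which can move with the handling of cells, had 4 higher members of 23 and 1 lower, against 3.87% and 3.52% of all genes. Higher were the heat shock genes Hspa1a and Hsp90aa1 and the AP-1 genes Fos and Fosb, and lower was the immediate early gene Egr1. Hspa1a, an inducible HSP70 gene, had 12.1, 8.18 and 19.8 CPM in Cbl-b-/-W131AOTII libraries, against 0.134, 0.0684 and 0 CPM in OTII libraries (7.51, edgeR adjusted p = 0.033). Its near-identical copy Hspa1b had 89.6, 59.7 and 130.3 CPM in Cbl-b-/-W131AOTII libraries, against 0.567, 0.957 and 1.004 CPM in OTII libraries (6.79, edgeR adjusted p = 0.061). No library overlapped, but the Hspa1a call was lost with any library left out (adjusted p up to 0.162). Hsp90aa1 rose by 1.12 (edgeR adjusted p = 0.0059). Their part in the other results was not tested.

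Markers of other cells were read beside these lists. Over all genes, 3.87% were higher and 3.52% lower. For the 19 tested B cell markers the median log2 fold change was -1.61 and the summed level 1737 to 1911 CPM in Cbl-b-/-W131AOTII libraries, against 2492 to 2852 CPM in OTII libraries, but only 2 passed, Cd79a (-1.77, edgeR adjusted p = 0.048) and Fcmr (-2.22, edgeR adjusted p = 0.028). The Cd79a call was lost with any library left out (adjusted p up to 0.184), and no B cell marker passed with any of the 6 libraries left out, whereas 11 passed without the 3 libraries of other groups that stand apart. With only the 6 compared libraries fitted, 17 were lower and 1 higher, where 1973 of 13835 genes were lower. The number lower was 16 with no filter on low counts, 6 with DESeq2 and 0 with the 12 peripheral libraries. NK and innate-like T cell markers summed to 457 to 631 CPM in Cbl-b-/-W131AOTII libraries, against 247 to 276 CPM in OTII libraries. These markers summed to 531 to 800 CPM in W131AOTII and 258 to 397 CPM in Cbl-b-/- OTII libraries. Their median log2 fold change was 1.32, and 2 of 16 were higher, the NK receptor gene Klrd1 and Trdc. That count was 1 without Cbl-b-/-W131AOTII replicate 2, OTII replicate 2 or OTII replicate 3. Trdc, the constant gene of the delta chain, had 219.8, 264 and 209.8 CPM in Cbl-b-/-W131AOTII libraries, against 64.7, 67.7 and 55.9 CPM in OTII libraries (1.88, SE 0.29, edgeR adjusted p = 0.00047). The Trdc groups did not overlap. In W131AOTII cells the log2 fold change of Trdc over the same OTII libraries was 1.69 (edgeR adjusted p = 0.002). Of 4 tested Trdv segments, 3 rose and 0 fell in Cbl-b-/-W131AOTII over OTII cells. Over the same OTII libraries 2 were higher in W131AOTII and 0 in Cbl-b-/- OTII cells. Klra8, also an NK receptor gene, was at 0 in all 6 libraries. Myeloid markers summed to 72.6 to 77.8 CPM in Cbl-b-/-W131AOTII libraries, against 78.3 to 103 CPM in OTII libraries, with 1 of 16 lower. Their part in the effector, interferon and regulatory results was not tested.

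T cell receptor variable segments were read beside the OT-II receptor that all groups carry. Of 24 tested Trbv segments 15 rose, against 3.87% of all genes, and none fell, with a median log2 fold change of 1.15. Trbv3 had 108, 102 and 69.5 CPM in Cbl-b-/-W131AOTII libraries, against 22.4, 19.4 and 16.6 CPM in OTII libraries (2.26, SE 0.22, edgeR adjusted p = 3.8e-06). Trbv12-2, which encodes a Vb5 chain like that of OT-II, had 386, 443 and 411 CPM in Cbl-b-/-W131AOTII libraries, against 439.8, 516 and 467 CPM in OTII libraries (-0.20, SE 0.15, edgeR adjusted p = 0.43). The groups overlapped. Against the same OTII libraries, 14 Trbv segments were higher in W131AOTII (against 1.68% of all genes) and 5 in Cbl-b-/- OTII cells (against 5.22%), and none was lower in either.

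Alpha chain segments went the other way. Of 71 tested Trav segments 13 fell, against 3.52% of all genes, and none rose, with a median log2 fold change of -0.54. That count was 2 when Cbl-b-/-W131AOTII replicate 1 or OTII replicate 2 was left out, 3 for OTII replicate 3, 5 for Cbl-b-/-W131AOTII replicate 2 and 7 for Cbl-b-/-W131AOTII replicate 3, and scaling by library size gave 8 lower and 1 higher. The Trav14 copies, whose family encodes the sorted Va2 chain and which are too alike to separate, did not pass. The constant genes Trac (-0.46, edgeR adjusted p = 0.065), Trbc1 (0.54, edgeR adjusted p = 0.064) and Trbc2 (0.00) did not pass either.

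**Figure D4:**
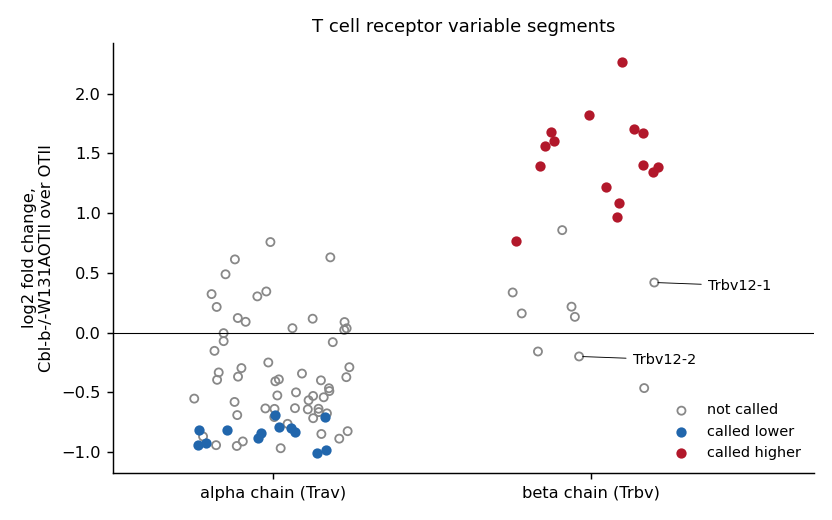
Each point is a T cell receptor variable segment, placed by its log2 fold change, Cbl-b-/-W131AOTII over OTII, on the vertical axis, for 71 Trav and 24 Trbv segments. Filled points passed an adjusted p under 0.05: 13 Trav segments lie below 0 and 15 Trbv segments above it, while Trbv12-1 and Trbv12-2 are open.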

How the data were processed

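The authors deposited a table of counts per gene for 18 libraries: whole numbers, not normalized, for 55536 mouse genes. Per the labels, total RNA was taken with an RNeasy kit, and libraries were sequenced single-end in 50-base reads. The submitters' processing notes name STAR 2.7.2, GRCm38 and DESeq2. The sources used here name no counting tool or strand setting, and overlapping and near-identical genes are uncertain. The total per library bounds the precision of low counts.

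All 18 libraries (6 groups of 3) were fitted in edgeR 4.0.16 (R 4.3.3) with TMM scaling, its expression filter (15204 genes tested) and robust quasi-likelihood tests on 12 residual degrees of freedom, and p-values were adjusted by Benjamini-Hochberg over all genes. A call is an adjusted p under 0.05. SE is the log2 fold change divided by the square root of F. Where a group is at 0, a fold is a lower bound against 3 counts over the group. Intervals cover counting error only.

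Members and gene lists were chosen with earlier results of these data known. Named genes are Cblb and Zap70, up to 15 in each direction with the smallest p among those changed at least 2-fold without overlap, up to 6 called members of each list (the 3 most abundant of marker and control lists), genes fixed by name, the 20 that answered most clearly to W131A alone, up to 10 interaction genes, and others added after their values were seen. Alternatives used DESeq2 1.42.0, other scalings, filters, sample sets, GC and length offsets, a replicate block and left-out libraries. The procedure was tested on simulated data.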

Additional observations from a re-analysis of the deposited data

Results flagged for a closer look

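For 33 of the 206 named genes the effect of W131A differed according to whether Cbl-b was lost. This was edgeR's test of the difference itself, with Benjamini-Hochberg adjustment over all genes. Some genes were named for their result in this test, and others for their answer to W131A alone, in libraries that also enter it. The count of 33 is therefore partly fixed by that choice and describes the named genes only. Of all 15204 genes tested, 96 passed (0.631%). The values are the log2 effect of W131A with Cbl-b lost minus the log2 effect with Cbl-b present.

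A group of antiviral genes lay below 0: Ifitm3 (-3.26), Isg15 (-2.75), Ifit3b (-2.44), Oasl2 (-2.25), Ifit3 (-2.24), Rsad2 (-2.07), Oas3 (-1.89), Ifit1 (-1.71), Isg20 (-1.69), Cmpk2 (-1.66), Irf7 (-1.56), Dhx58 (-1.39) and Usp18 (-1.32). Each of these kept its call with any peripheral library left out. Oasl1 (-1.31) lost its call without OTII replicate 2 or 3 (adjusted p up to 0.074), and Irf9 (-0.72) lost its call without most libraries (adjusted p up to 0.176). Among the GTPases the difference was -1.31 for Gbp2, -1.17 for Igtp and -1.15 for Irgm1, which kept their calls, and -0.92 for Gbp3, which lost its call without Cbl-b-/-W131AOTII replicate 2 or 3, W131AOTII replicate 3, or OTII replicate 2 or 3 (adjusted p up to 0.123).

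Receptor and effector genes formed the other group. Il1rl1, which encodes the interleukin-33 receptor ST2, had a difference of -7.03, with 0.352, 0.336 and 1.11 CPM in Cbl-b-/-W131AOTII, 2.41, 2.92 and 2.04 CPM in W131AOTII, 2.35, 3.86 and 3.00 CPM in Cbl-b-/- OTII and 0.134, 0.103 and 0.0359 CPM in OTII libraries. Both single changes lay above Cbl-b-/-W131AOTII, which lay above OTII. Cxcr3 (-3.53), the opioid precursor gene Penk (-2.95) and Ccr8 (-2.71) also kept their calls with any library left out.

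The remaining calls each depended on single libraries. Synj2 (-1.37) lost its call without Cbl-b-/-W131AOTII replicate 2, OTII replicate 1 or OTII replicate 2 (adjusted p up to 0.057), and Klrg1 (-6.61) without W131AOTII replicate 2, OTII replicate 2 or OTII replicate 3 (adjusted p up to 0.167). S100a4 (-4.03) lost its call without Cbl-b-/-W131AOTII replicate 2, OTII replicate 1 or OTII replicate 3 (adjusted p up to 0.0757). Losing their calls without OTII replicate 3 and at least 4 other libraries were S100a6 (-3.64, up to 0.0851), Ccnb2 (-3.99, up to 0.0682), Gzmb (-3.53, up to 0.157), Bhlhe40 (-1.71, up to 0.115), Tnfrsf4 (-1.55, up to 0.142), Hmgb1 (1.04, up to 0.094) and the myeloid gene Lyz2 (-5.39, up to 0.0918), with the largest adjusted p in brackets. Lyz2 had 2.05, 1.94 and 0.764 CPM in Cbl-b-/-W131AOTII, 3.66, 61.8 and 11.8 CPM in W131AOTII, 32.3, 25.3 and 12.1 CPM in Cbl-b-/- OTII and 7.81, 9.88 and 9.15 CPM in OTII libraries.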

How the results depend on the processing

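The count of 1123 changed genes rested on the settings more than the direction of any named gene did. It was 1781 with DESeq2 (912 lower), 1816 with no filter on low counts (934 higher and 882 lower), 2091 when the 12 peripheral libraries alone were fitted (994 higher and 1097 lower) and 3878 when the 6 compared libraries alone were fitted (1905 higher and 1973 lower). Scaling by library size gave 339 lower genes. Leaving out 1 of the 6 libraries gave 341 to 887 changed genes, 215 to 419 higher and 126 to 468 lower. Size factors in place of TMM gave 1090, GC and length offsets 1176, and leaving out the 3 libraries of other groups that stand apart 1155. Of the 1123 calls, these settings kept 97.0%, 78.1% and 87.4% in that order. Of 148 named genes past the threshold, 75 kept their call under every alternative, and none of the named genes reversed. Of 58 named genes not past it, 31 passed under at least 1 alternative. Replicate numbers did not pair the libraries: deviations of same-numbered libraries correlated at 0.03, 0.09 and -0.02. With the replicate block 993 genes changed, 959 of them shared with the fit without it, and 1054 did with the block and the GC offsets together. Leave-outs for the interaction and for comparisons with W131AOTII or Cbl-b-/- OTII cells were chosen after seeing the data: the interaction had 49 to 169 changed genes. Having 3 libraries a group limits what can be seen of small changes in low genes.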

Other observations

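Genes near the altered loci were counted, since alleles bred onto C57BL/6 can carry neighbouring sequence. Within 10 Mb of Cblb on chromosome 16, 9 of 70 tested genes changed (12.9%, against 7.39% of all genes), among them Tbc1d23, Gpr15, Cd200 and Tigit. Within 10 Mb of Zap70 on chromosome 1, 8 of 103 changed (7.77%), among them Il1rl1. The part of neighbouring sequence in the calls of Cd200, Tigit and Il1rl1 was not tested.

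The mitochondrially encoded gene mt-Nd3 was at 0 in all libraries of Cbl-b-/-W131AOTII and Cbl-b-/- OTII cells. It had 0.595, 0.643 and 0.605 CPM in W131AOTII libraries and 0.334, 0.821 and 0.395 CPM in OTII libraries, and it was at least 15.4-fold lower in Cbl-b-/-W131AOTII than in OTII libraries against 3 counts over the group. Of 8 tested mitochondrial genes no other passed.

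Erythroid markers had 3 higher members of 6, all haemoglobin genes, against 3.87% of all genes. None passed without Cbl-b-/-W131AOTII replicate 2, OTII replicate 2 or OTII replicate 3, and 1 did without OTII replicate 1. Hbb-bs had 0.469, 3.14 and 0.452 CPM in Cbl-b-/-W131AOTII libraries and was at 0 in the 3 OTII libraries, so the second Cbl-b-/-W131AOTII library held most of its level. All 61 tested immunoglobulin segments lay below 0 (median log2 fold change -1.71), the highest at -0.11, although Ighd was the only one past the threshold. The B cell markers had a median of -1.61.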
